A study of Mus musculus with 2 samples.

Results

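The cells described here were macrophages of the aorta that carried at least 2 of the resident markers Lyve1, Cd163, Folr2 and Cbr2, taken from single-cell RNA-seq libraries of abdominal aortic aneurysm. They were chosen by a rule on measured UMIs (unique molecular identifiers, each counted as 1 captured RNA molecule). A cell was selected on holding at least 200 detected genes and at most 20% mitochondrial UMIs, at least 0.2% of its UMIs from C1qa, C1qb and C1qc, and at least 2 of the 4 markers Lyve1, Cd163, Folr2 and Cbr2 with 1 or more UMI. Cells with at least 2 Gpnmb UMIs and at least 0.1% of UMIs from Gpnmb and Spp1, a profile of lipid-handling macrophages, were set apart. The rule took 637 cells of 16521 that passed the cell filters, 299 in the inhibitor library against 338 in the DMSO library. The 2 libraries, 1 per group, were prepared from the aorta of 12-week Apoe-/- mice with an aneurysm induced by angiotensin II (Ang II). Apoe-/- mice lack apolipoprotein E and have high plasma cholesterol, and Ang II is a hormone that constricts vessels. Both libraries thus share the Apoe deletion, the Ang II treatment and the aneurysm, and they differ by an inhibitor or DMSO, a common solvent, as the title initials and the stated design were read. The sources used here give neither the inhibitor's name and dose nor how many animals stand behind a library. With 1 library per group no test between groups was possible, so every difference given here is between 2 libraries, and all intervals cover counting error only.

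Resident macrophages settle in tissues and renew there, whereas other macrophages arise from circulating monocytes that enter during inflammation. In the outer wall of arteries, resident macrophages carry receptors for debris and matrix: LYVE1 binds hyaluronan, CD163 takes up haemoglobin bound to haptoglobin, FOLR2 is a folate receptor, and Cbr2 encodes a carbonyl reductase. C1qa, C1qb and C1qc encode the chains of C1q, a part of the first complement component, and macrophages of many tissues make C1q.

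The inhibitor library held 79648307 UMIs in 8149 barcodes and the DMSO library 101139161 UMIs in 9125 barcodes, of which 7857 and 8664 barcodes passed the filters. The libraries shared 16 barcodes, and none of these was among the resident macrophages. RNA of smooth muscle differed widely between the libraries. The summed level of Myh11, Acta2, Tagln, Cnn1 and Myl9 was 27013 CPM (UMIs of a gene or list per 1000000 UMIs) in cells without C1q UMIs of the inhibitor library. It was 6349.5 CPM in those of the DMSO library. Fibroblast markers, 5 in number, differed less in the same cells, at 13819 CPM in the inhibitor library and 18820 CPM in the DMSO library. The median resident macrophage held 4106 UMIs and 1957 genes in the inhibitor library, against 5785 UMIs and 2386 genes in the DMSO library. All resident macrophages together gave 1694730 UMIs in the inhibitor library against 2458203 UMIs in the DMSO library. Ddx3y and the other Y-linked genes examined were detected in both libraries and Xist was close to absent in both, at 0.215 and 0.161 CPM.

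Resident macrophage markers that the rule did not use were abundant in the cells: Mrc1, the mannose receptor, was detected in 99.0% and 96.2% of the cells, F13a1 in 92.0% and 84.3%, and Pf4 in 88.3% and 78.7%, in the inhibitor and the DMSO library. In cells with 5 or more Myh11 UMIs and little C1q, at median depths of 11471.5 and 14360.5 UMIs, Mrc1 was detected in 5.84% and 17.1%, F13a1 in 5.58% and 11.3%, and Pf4 in 3.78% and 6.94%. The other C1q cells, macrophages outside the rule at median depths of 6471.5 and 4891.5 UMIs, carried them more often, Mrc1 in 74.4% and 68.4%, F13a1 in 42.8% and 33.2%, and Pf4 in 52.6% and 39.3%. Timd4 was rare, in 9.70% and 2.07%, and Vsig4 was below the limit for measured genes given further on. The 8 general macrophage markers, which include C1qa, C1qb and C1qc of the rule, summed to 14494 CPM in the inhibitor cells and 13503 CPM in the DMSO cells. Most of both sums came from these C1q genes, so the sums are a description. C1qa was at 4846 and 4624 CPM, C1qb at 4532 and 4420 CPM, and C1qc at 2957 and 2442 CPM. Cd3e, which defines T cells, was at 0 in both, and the 5 T cell markers summed to 2.36 and 3.25 CPM. RNA of other wall cells was present. The 5 smooth muscle markers summed to 6662 CPM in inhibitor cells and 2523 CPM in DMSO cells, the 5 fibroblast markers to 989.5 and 2256 CPM, and the 4 adipocyte markers to 28.3 and 225 CPM, none of these markers being at 0. The 5 lymphatic endothelial markers summed to 49.0 and 188 CPM, against 4.36 and 22.4 CPM in the other C1q cells. Only 1 inhibitor and 2 DMSO resident macrophages held 2 or more of these UMIs. The 4 B cell markers summed to 199 and 174 CPM, against 136 and 144 CPM in the other C1q cells. The median cell held much less smooth muscle RNA than the sum implies, 0.0874% of its UMIs in the inhibitor library, and single cells reached 8.26%. The 4 monocyte markers Ly6c2, Ccr2, Plac8 and Chil3 summed to 329.8 CPM in inhibitor cells and 739 CPM in DMSO cells, with Chil3 at 0 in the inhibitor cells. At least 2 UMIs of these markers were held by 25.4% of inhibitor and 55.3% of DMSO resident macrophages. Ccr2 was detected in 27.8% and 53.0% of the resident macrophages, against 63.2% and 55.6% of the other C1q cells. By Ccr2 detection the DMSO cells were thus near the macrophages outside the rule, and the inhibitor cells were not.

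The edges of the rule took in few cells on the C1q side and more on the marker side. With at least 2 markers, 6 inhibitor and 4 DMSO cells lay just below the C1q minimum, at 0.15% to 0.2%, and 1 inhibitor and 4 DMSO cells lay just above it, at 0.2% to 0.25%. The Gpnmb and Spp1 limit kept out 1 inhibitor cell and 51 DMSO cells that had 2 markers or more, and 13 inhibitor and 69 DMSO cells inside the rule still held a Gpnmb UMI. Cells that passed on exactly 2 markers at 1 UMI each numbered 19 in the inhibitor library against 60 in the DMSO library. Cbr2 was also found in other cells: it was detected in 79.9% of 3440 inhibitor and 73.7% of 980 DMSO cells with 5 or more Myh11 UMIs and little C1q, at 209 and 164 CPM. In the resident macrophages Cbr2 was at 614 and 451 CPM. In the same Myh11 cells Lyve1 was detected in 5.38% and 8.57%, Cd163 in 3.28% and 3.98%, and Folr2 in 1.69% and 4.69%, at 1.54 to 9.24 CPM.

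The resident macrophages made up about the same share of all cells in both libraries, within counting error, and a larger share of macrophages in the inhibitor library. They were 3.81% of the cells kept in the inhibitor library (95% Clopper-Pearson interval 3.39% to 4.25%) against 3.90% in the DMSO library (3.50% to 4.33%). Of the cells above the C1q minimum, called C1q cells here, they were 43.1% of 694 in the inhibitor library (39.4% to 46.9%) and 20.5% of 1646 in the DMSO library (18.6% to 22.6%). C1q cells were 8.83% of inhibitor cells and 19% of DMSO cells. Gpnmb and Spp1 macrophages were 6.77% of the C1q cells of the inhibitor library and 17.9% of those of the DMSO library, and the other C1q cells were 50.1% and 61.6%. Without counting Cbr2, so that 2 of Lyve1, Cd163 and Folr2 were needed, 230 inhibitor and 157 DMSO cells remained, 33.1% of inhibitor and 9.54% of DMSO C1q cells. Under that count, and with 3 markers required, the share of all cells was also larger in the inhibitor library, at 2.93% against 1.81% and at 2.55% against 1.5%.

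**Figure D1:**
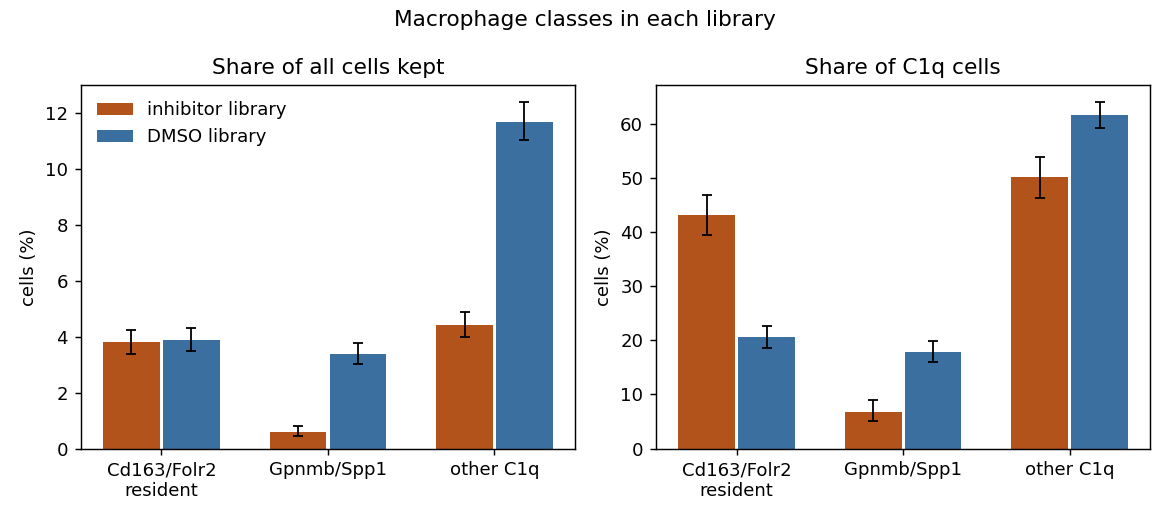
Share of cells (%) in the 3 classes of C1q macrophages, of all cells kept (left panel) and of C1q cells (right panel), in the inhibitor library and the DMSO library. Bars are shares and lines are 95% Clopper-Pearson intervals for counting error; the Cd163 and Folr2 resident class is at 3.81% and 3.90% of all cells and at 43.1% and 20.5% of C1q cells.

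The 4 markers were combined differently in the libraries. All 4 were detected in 113 of 299 inhibitor cells (37.8%, 32.3% to 43.6%) and in 24 of 338 DMSO cells (7.10%, 4.60% to 10.4%), although the DMSO cells were deeper. Exactly 2 markers were found in 99 inhibitor cells (33.1%) and 208 DMSO cells (61.5%), and the commonest pair in the DMSO library, Folr2 with Cbr2, made up 129 cells there and 35 cells in the inhibitor library. Lyve1 was detected in 205 inhibitor cells (68.6%, 63.0% to 73.8%) and 84 DMSO cells (24.9%, 20.3% to 29.8%). After each cell was thinned to 2000 UMIs, which left out 37 inhibitor and 21 DMSO cells, Lyve1 was detected in 51.9% and 15.8%, and Cd163 in 61.1% and 30.6%. Folr2 then stood at 58.4% and 54.3% and Cbr2 at 66.8% and 62.5%, with overlapping intervals. In the other C1q cells, thinned alike, Lyve1 was detected in 0.373% and 0.277%. These genes chose the cells, so their levels are a description: Lyve1 was at 533 CPM in inhibitor cells and 127 CPM in DMSO cells, Cd163 at 843 and 345, and Folr2 at 509 and 359. Of 311 Lyve1 UMIs in DMSO cells, single cells held 60, 36 and 21. Of 903 in inhibitor cells, the most in a single cell was 31. In GRCm38, with GENCODE M21 gene models, these protein-coding genes lie at chr7:110850607-110863239 (Lyve1), chr6:124304656-124330527 (Cd163), chr7:101839988-101857194 (Folr2) and chr11:120729489-120732114 (Cbr2).

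**Figure D2:**
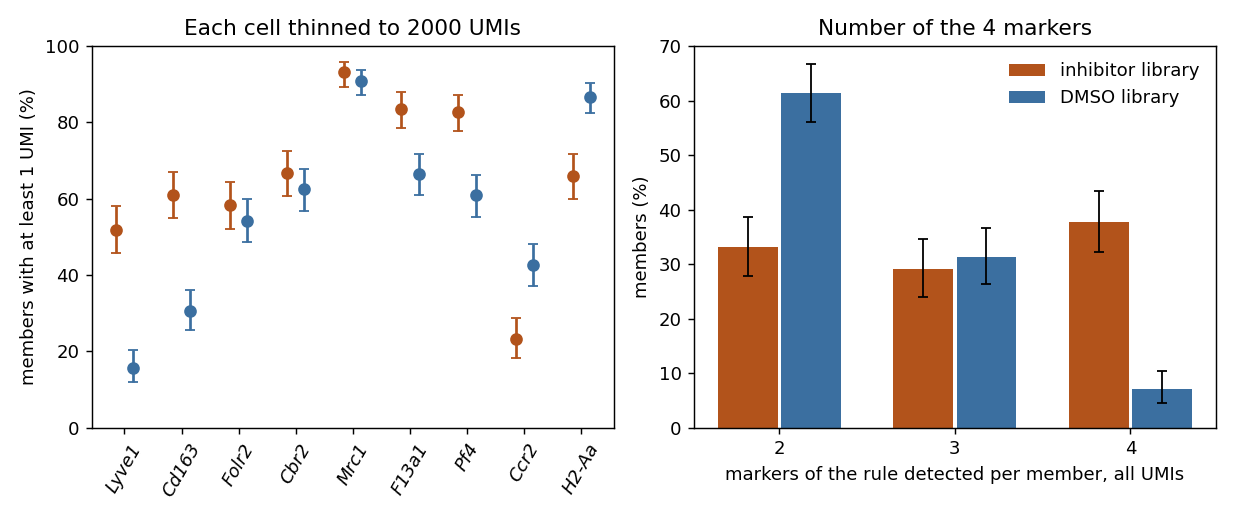
Left: resident macrophages with at least 1 UMI of each gene (%) after thinning to 2000 UMIs per cell, in the inhibitor library and the DMSO library, with 95% Clopper-Pearson intervals. Right: share of resident macrophages (%) with 2, 3 or 4 of the markers of the rule; 37.8% of inhibitor cells and 7.10% of DMSO cells held all 4.

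UMIs were then summed over the resident macrophages of each library. A gene is called higher or lower here where the level in inhibitor cells differed at least 1.5-fold from that in DMSO cells and the 95% counting interval of the ratio left out 1, among 7145 genes with at least 20 CPM in 1 library and at least 20 UMIs over both. By this rule 647 genes (9.06%) were higher and 461 (6.45%) were lower in inhibitor cells, with a median log2 ratio of 0.07 after 5 CPM were added. These shares over all genes stand beside every gene list count below. Centring the ratios on their median, a shift of 0.07, gave 476 higher and 564 lower. Of the genes at least as high in the resident macrophages as in cells without C1q UMIs, 4658 in number, 337 were higher and 295 lower. Of the 472 higher genes that could be measured in the other C1q cells, 176 were also higher there, and 193 of 428 lower genes were also lower there, where 5.14% and 7.41% of all genes were called. Malat1, an abundant nuclear RNA, was at 30719 and 31359.5 CPM. Apoe was at 542 CPM in inhibitor cells and 965 CPM in DMSO cells, but 3' reads outside the deleted part of the gene say nothing about the deletion, which both groups carry.

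Of 22 genes listed for resident macrophage identity, receptors among them, 21 were measured, 11 were higher, 1 was lower and 9 were between, with a median log2 ratio of 0.60 beside 0.07 for all genes. Timd4, a receptor for phosphatidylserine on dying cells, was at 25.4 CPM in inhibitor cells and 6.1 CPM in DMSO cells, a ratio of 4.16-fold with a 95% counting interval of 2.26 to 8.06. Its UMIs came from 29 inhibitor cells and 7 DMSO cells. Fcrls, an Fc receptor-like scavenger receptor, was at 742 and 356 CPM (2.08-fold, 1.91 to 2.27). Stab1, a scavenger receptor that clears modified proteins, was at 1158 and 690.3 CPM (1.68-fold), and Mrc1 at 2304 and 1486 CPM (1.55-fold). F13a1, the A subunit of coagulation factor XIII, was at 1399 CPM in inhibitor cells and 852 CPM in DMSO cells (1.64-fold). The lectin genes went both ways: Cd209f, Cd209g and the ficolin gene Fcna were higher, and Clec10a, a lectin for galactose, was lower, at 267 and 439.8 CPM. Mertk, Gas6, Igf1, Siglec1 and Csf1r were among the 9 that passed in neither direction. The list's median differed by Lyve1 status. Among cells with a Lyve1 UMI the list's median was 0.44, and among those without it was -0.08. Mrc1 was 1.43-fold with and 1.24-fold without Lyve1 and F13a1 1.43-fold and 1.17-fold, all below the 1.5-fold limit, and with 3 markers required their log2 ratios were 0.43 and 0.42, also below it. Fcrls stayed above it in both, at 2.71-fold and 2.11-fold. The call of Stab1 was lost in cells without Lyve1, at a log2 ratio of 0.39.

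Of 20 scavenging and efferocytosis genes, 19 were measured, 5 were higher and 1 was lower (median 0.12). The higher genes were Timd4, Stab1, Mrc1, Colec12 and Cd36, a fatty acid receptor at 227 and 149.7 CPM. Colec12, a scavenger receptor, was at 62.0 CPM in inhibitor cells and 16.7 CPM in DMSO cells, below its level of 125 and 96.0 CPM in cells without C1q UMIs. Its call was lost in resident macrophages without Lyve1, at a log2 ratio of 0.49. Cd5l, a secreted scavenger protein, was the lower gene, at 2.36 and 26.4 CPM, and 33.8% of its DMSO UMIs lay in 1 cell. Of the iron and haem list, 1 of 14 measured genes, Cp, was higher and 1, Steap3, a metalloreductase gene, was lower (median -0.16). Both counts were near the shares over all genes, 9.06% higher and 6.45% lower. The call of Steap3 was lost under 6 alternatives, with log2 ratios of -0.50 to -0.080, and that of Cp with 3 markers required, at 0.16. Hmox1 and Fth1, which degrade haem and store iron, passed in neither direction. Of 16 growth factor and matrix genes measured, F13a1 and Mmp9, a gelatinase gene, were higher and 2 were lower (median 0.25), counts also near those shares. The lower ones were Mmp2 and Mmp14, matrix metalloproteases, and the summed fibroblast markers were lower in the same cells. Mmp2 was at 9.44 and 81.4 CPM in the resident macrophages and at 225 and 459 CPM in cells without C1q UMIs, and the part of that RNA in the result was not tested.

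Among the 12 highest ratios, taken over called genes of at least 50 CPM that were at least as high as in cells without C1q UMIs, was Hpgd, which inactivates prostaglandins, at 156 CPM in inhibitor cells and 59.8 CPM in DMSO cells (2.60-fold, 2.12 to 3.21). Alox5, the lipoxygenase that starts leukotriene synthesis, was at 51.9 and 20.3 CPM (2.55-fold), and Ltc4s, a leukotriene synthase gene of the identity list, was higher as well, at 139.8 and 80.1 CPM. Kitl, the ligand of the receptor Kit, was at 74.3 and 28.9 CPM (2.57-fold). Tmod1, which caps actin filaments, was at 58.4 and 15.5 CPM (3.78-fold), Adam33, a membrane metalloprotease, at 92.1 and 24.4 CPM (3.77-fold), and St3gal6, a sialyltransferase, at 82.6 and 32.1 CPM (2.57-fold). Afap1l1, Grap and the noncoding Gm26870 completed the 12 highest ratios with Ccl24, Ccl12 and Lyz1. Lyz1, a lysozyme gene, was 4.04-fold higher, but 36.9% of its inhibitor UMIs came from 1 cell. Fkbp5, a co-chaperone induced by glucocorticoids, was at 271 CPM in inhibitor cells and 132 CPM in DMSO cells (2.05-fold), and Zbtb16 and Klf9 of the same list were higher, while the metallothionein genes Mt1 and Mt2 and the phosphatase gene Dusp1 were lower. That list of 12 thus had 3 higher and 3 lower genes (median -0.07), and Mt1 lay on the other side, at a log2 ratio of 0.017 or 0.16, when cells with a Scrublet doublet score above 0.2 or with 1% stromal marker UMIs were left out.

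**Figure D3:**
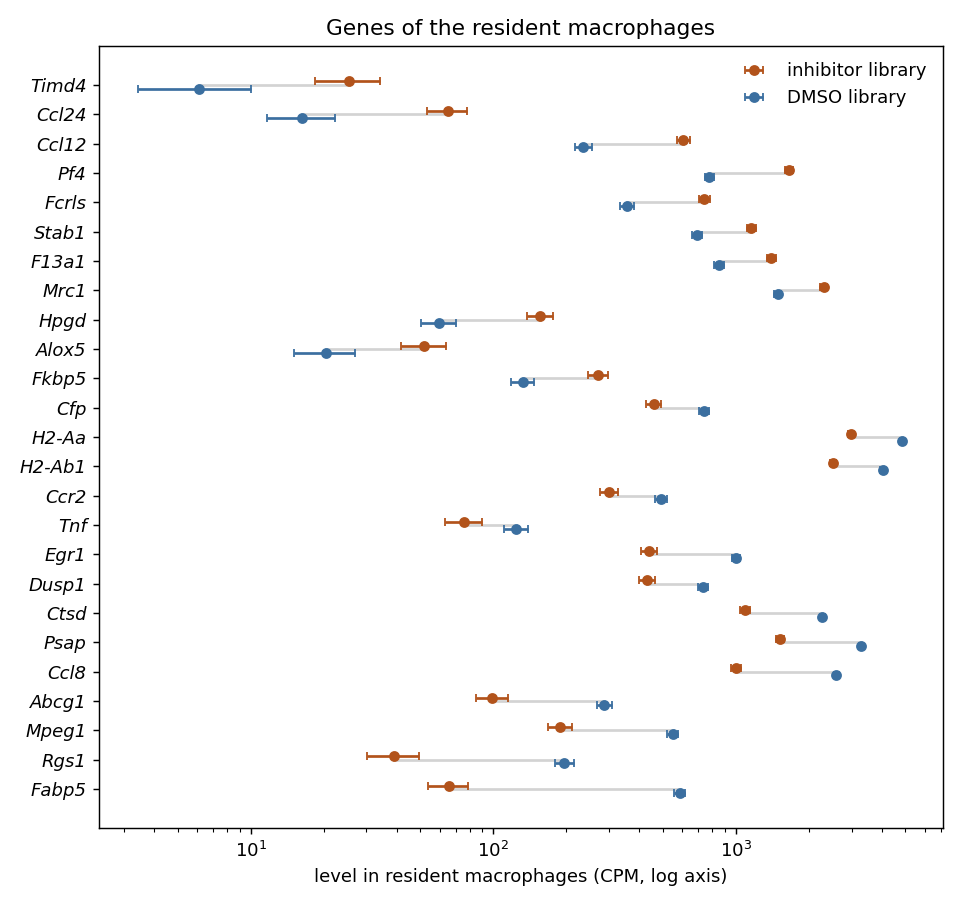
Level (CPM, log axis) of 25 genes named in the text, summed over 299 resident macrophages of the inhibitor library and 338 of the DMSO library. Points are levels and lines are exact Poisson 95% intervals for counting error; Timd4 to Fkbp5 lie higher in the inhibitor library and Cfp to Fabp5 lower.

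Chemokines split by gene. Of 17 measured, 3 were higher and 8 lower in inhibitor cells, with a median log2 ratio of -0.42. Ccl8, a monocyte-attracting chemokine, was at 1005 CPM in inhibitor cells and 2594 CPM in DMSO cells (0.387-fold, 0.367 to 0.409). The lower level held in cells with Lyve1, at 1219.6 and 3654 CPM, and in cells without it, at 621 and 2256 CPM. The other C1q cells also had less Ccl8, at 148 CPM against 419.7 CPM. Ccl12, a related monocyte chemoattractant, went the other way, at 606 CPM in inhibitor cells and 235 CPM in DMSO cells (2.58-fold, 2.33 to 2.86), and it was higher in cells with and without Lyve1. Pf4, a chemokine also stored in platelets, was at 1653 and 777 CPM (2.13-fold, 2.01 to 2.26). Ccl24, which attracts eosinophils, was at 64.9 and 16.3 CPM (3.99-fold, 2.75 to 5.88), from 53 inhibitor and 31 DMSO cells. In cells with Lyve1 it was at 86.5 CPM in inhibitor cells and 18.5 CPM in DMSO cells, and in cells without Lyve1 at 26.3 and 15.6 CPM, where the interval of the ratio held 1. Cxcl13, a B cell attractant, was at 1.18 CPM in inhibitor cells, from 2 UMIs, and 45.6 CPM in DMSO cells (0.0259-fold, 0.0031 to 0.0958), and Cxcl12, which binds the receptor Cxcr4, at 62.5 and 209.5 CPM. Cells without C1q UMIs held more of both and differed alike, with 21.8 and 277 CPM of Cxcl13 and 347 and 1100.4 CPM of Cxcl12, and the part of their RNA was not tested. When cells with 1% stromal marker UMIs were left out, the log2 ratio of Cxcl12 was -0.088, inside the 1.5-fold limit. Cxcl9, Cxcl10, Ccl4, Cxcl1 and Ccl6 were the other lower genes.

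Most listed genes of antigen presentation on MHC class II molecules were lower in inhibitor cells, by a wider margin in the cells with Lyve1. Of 10 genes listed, all measured, 7 were lower and none higher, with a median log2 ratio of -0.65 beside 0.07 for all genes. H2-Aa, which encodes a class II alpha chain, was at 2969.8 CPM in inhibitor cells and 4852 CPM in DMSO cells (0.612-fold, 0.592 to 0.633). The beta chain genes H2-Ab1, at 2512 and 4023 CPM, and H2-Eb1, at 2556 and 4092 CPM, were lower by a like ratio, 0.624 and 0.625. Ciita, the activator that class II genes require, was at 72.6 CPM in inhibitor cells and 113 CPM in DMSO cells, a ratio of 0.639. Cd40, a costimulatory receptor, the cathepsin gene Ctss and H2-DMb1 were lower as well, and Cd74, the invariant chain, at 7280.2 and 10609.8 CPM, was just short of the 1.5-fold limit. Among cells with Lyve1, H2-Aa was at 2109 CPM in inhibitor cells and 4288 CPM in DMSO cells, and the list's median was -0.86. Among cells without Lyve1, H2-Aa was at 4510.2 and 5032 CPM and the median was -0.14, and in the other C1q cells H2-Aa was at 4993 and 5469 CPM. Ccr2, the chemokine receptor of monocytes, followed the same order: it was at 299.8 CPM in inhibitor cells and 492 CPM in DMSO cells, at 199.6 and 426 CPM with Lyve1, and at 479 and 513 CPM without it. In the other C1q cells Ccr2 was at 642 and 687 CPM.

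Per cell, H2-Aa, H2-Ab1, H2-Eb1 and Cd74 took a median of 0.762% of the UMIs of inhibitor cells and 2.15% of those of DMSO cells. With Lyve1 the medians were 0.340% in inhibitor and 1.60% in DMSO cells, and without Lyve1 they were 2.09% and 2.35%. In the other C1q cells they were 2.0% and 1.99%. Levels varied widely within every class: the middle 50% of inhibitor cells with Lyve1 spanned 0.0355% to 2.06%, and 31 of these 205 cells had no UMI of the 4 genes, against 1 of 84 DMSO cells. After thinning to 2000 UMIs, H2-Aa was detected in 66.0% of inhibitor and 86.8% of DMSO cells. Class II RNA in cells with 5 or more Myh11 UMIs and little C1q differed in the same direction: there H2-Aa was detected in 12.4% and 51.4% of cells, at 42.1 and 117 CPM, and Cd74 in 28.5% and 76.6%, at 95.2 and 264 CPM. The part of such background in the detected shares was not tested. Class II levels turned round, with a log2 ratio of 1.00 for H2-Aa, when every cell with 2 UMIs of another cell type was left out, but only 16 inhibitor and 8 DMSO cells then remained.

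**Figure D4:**
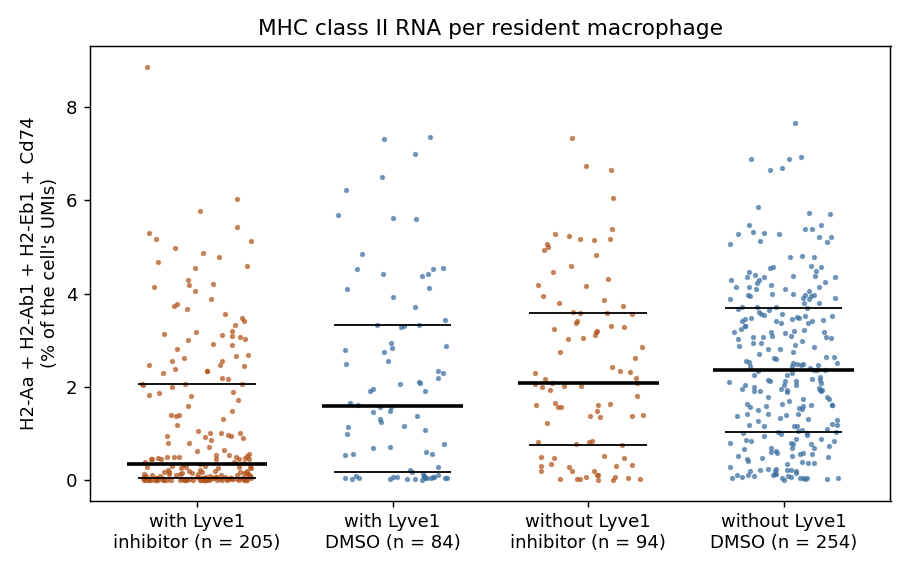
Share of each resident macrophage's UMIs (%) from H2-Aa, H2-Ab1, H2-Eb1 and Cd74, for cells with and without a Lyve1 UMI in the inhibitor library and the DMSO library. Each point is 1 cell, thick lines are medians and thin lines quartiles. The medians are 0.340% and 1.60% with Lyve1 and 2.09% and 2.35% without it. Cells with Lyve1 differed in Lyve1 level between the libraries, at a median of 0.0796% and 0.0340% of UMIs.

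The promoters of 2 of the lower class II genes are shown because they carry the same element close to the start of transcription. Class II promoters hold a conserved array of boxes through which Ciita acts, and their Y box is an inverted CCAAT sequence bound by the factor NF-Y. The sequences below are RefSeq's, 250 bases before to 50 bases after the start in build GRCm38.p6, 5′ to 3′ along the gene, with the letters CTGATTGG in capitals. H2-Aa lies on the minus strand with its window at chr17:34287774-34288073, and H2-Eb1 on the plus strand at chr17:34305617-34305916.
H2-Aa: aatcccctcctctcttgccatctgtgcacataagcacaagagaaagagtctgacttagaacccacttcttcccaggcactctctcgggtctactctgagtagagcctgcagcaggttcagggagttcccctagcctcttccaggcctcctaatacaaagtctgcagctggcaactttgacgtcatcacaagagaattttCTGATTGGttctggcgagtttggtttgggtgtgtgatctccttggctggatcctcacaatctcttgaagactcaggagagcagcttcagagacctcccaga
H2-Eb1: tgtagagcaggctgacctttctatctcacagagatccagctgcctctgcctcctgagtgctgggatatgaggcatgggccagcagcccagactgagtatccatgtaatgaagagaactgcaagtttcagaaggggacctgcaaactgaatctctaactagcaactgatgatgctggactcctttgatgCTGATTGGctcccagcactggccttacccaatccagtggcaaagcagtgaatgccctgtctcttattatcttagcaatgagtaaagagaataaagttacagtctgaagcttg
The letters begin 51 bases before the start of H2-Aa and 62 bases before that of H2-Eb1. Of 32851 promoter windows of this length, 4.10% held CTGATTGG on either strand. Windows of 5 of the 10 listed genes were examined, and Cd74 was not among them. The letters were not in those of H2-DMa, H2-DMb1 and Ctss.

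Of 18 lipid handling genes measured, 10 were lower in inhibitor cells and 1 was higher, with a median log2 ratio of -0.74. Fabp5, a fatty acid binding protein, was at 65.5 CPM in inhibitor cells and 587 CPM in DMSO cells (0.112-fold, 0.0912 to 0.136), the lowest ratio among the genes named by size. It was detected in 17.1% of inhibitor and 55.3% of DMSO cells. Abcg1, which exports cholesterol, was at 99.1 and 287 CPM (0.345-fold, 0.290 to 0.409), and Abca1, Nr1h3, which encodes the sterol receptor that induces both transporters, Soat1 and Plin2, which act in storage, Lgals3, Pltp and Lipa were also lower. Lpl, lipoprotein lipase, was at 139 and 371 CPM, against 178 and 641 CPM in cells without C1q UMIs, where adipocyte markers were also lower, and the part of that RNA was not tested. The list's median was -0.59 in cells with Lyve1 and -0.65 in cells without it. In the other C1q cells it was -0.52, with 8 of the 18 lower. In the Gpnmb and Spp1 cells, where Fabp5 was at 10106 and 8523 CPM, the median was -0.11. Inside the rule, Gpnmb UMIs were found in 13 inhibitor and 69 DMSO cells, and whether cells near that limit bear on the lower levels was not tested.

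Of 20 lysosomal genes measured, 4 were lower, none was higher and 16 passed in neither direction (median -0.32). Psap, the precursor of saposins, was at 1524 CPM in inhibitor cells and 3278 CPM in DMSO cells (0.465-fold, 0.445 to 0.486), and the protease gene Ctsd at 1091 and 2273 CPM (0.480-fold, 0.455 to 0.506). Ctsl and Ctsb, also cathepsins, were lower, and Lamp1, Cd68, Lgmn and Grn passed in neither direction. Of 8 complement genes measured, 3 were lower and 1 higher (median -0.27). Cfp, which encodes properdin, was at 458 and 740.0 CPM (0.619-fold). C3 was at 49.6 and 538 CPM, but cells without C1q UMIs held 829.6 and 2932 CPM, and the part of that RNA was not tested.

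Of 18 immediate early genes, all measured, 12 were lower and none higher (median -0.70). Egr1, a transcription factor gene switched on within minutes of stimulation, was at 438 CPM in inhibitor cells and 999.9 CPM in DMSO cells (0.438-fold, 0.403 to 0.476), Fosb at 184 and 421 CPM, and Dusp1 at 431 and 731 CPM. The medians of this list in the other strata were alike: they were -0.74 with Lyve1, -0.63 without it, -0.83 in the other C1q cells and -0.90 in the Gpnmb and Spp1 cells, and Egr1 was lower in cells without C1q UMIs too, at 321 and 836 CPM. Of 15 inflammatory cytokine and receptor genes measured, 5 were lower, 10 passed in neither direction and none was higher (median -0.29). Tnf was at 75.5 CPM in inhibitor cells and 124 CPM in DMSO cells (0.611-fold, 0.493 to 0.753), and Tnfaip3, a brake on its signalling, at 27.7 and 78.1 CPM. The call of Tnf was lost with a C1q minimum of 0.5%, at a log2 ratio of -0.55, and in cells without Lyve1, at -0.48. Il1b was at 7.67 and 39.9 CPM, and its 13 inhibitor UMIs came from 3 of 299 cells, against 98 UMIs from 42 of 338 DMSO cells. Of 20 interferon-stimulated genes measured, Gbp2, which encodes a guanylate-binding protein, and Irf1, a transcription factor gene, were lower and none was higher, with a median of -0.0025. Over all genes 6.45% were lower, so 2 of 20 was near that share. Both calls were lost under several alternatives, with log2 ratios of -0.75 to -0.49 for Gbp2 and -0.54 to -0.38 for Irf1.

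Of 16 heat shock genes 10 were higher, 6 passed in neither direction and none was lower (median 0.67), and of 14 endoplasmic reticulum stress genes 6 were higher and none lower, with 8 in between (median 0.47). Hspb1, a small heat shock protein, was at 1578 CPM in inhibitor cells and 214 CPM in DMSO cells (7.36-fold, 6.70 to 8.10), and Hsp90aa1 at 1257 and 705 CPM (1.78-fold). Only 1 of the 16 heat shock genes was at least as high in the resident macrophages as in cells without C1q UMIs, and it passed in neither direction, with a log2 ratio of -0.32. In cells without C1q UMIs Hspb1 stood at 7527 and 685 CPM, and the summed smooth muscle markers were also higher in the inhibitor than in the DMSO resident macrophages. With cells of 1% stromal marker UMIs left out, the list's median was 0.60. Manf, a secreted protein of the stressed endoplasmic reticulum, was at 398 and 229 CPM (1.74-fold), and Pdia4 and Dnajb11, which fold proteins there, were higher also among genes at least as high in the resident macrophages as in cells without C1q UMIs. Among 14 cell cycle genes, Top2a, a topoisomerase gene, was higher and none was lower (median 0.20), and Top2a fell below the limit after centring, at 0.55. Over all genes 9.06% were higher, so 1 of 14 was near that share. Of 12 purinergic and surface genes of tissue macrophages, P2ry12, an ADP receptor, at 66.7 and 35.8 CPM, and Ms4a6b, a membrane protein gene, at 511 and 314 CPM, were higher and none lower (median 0.24). Both calls were lost in cells without Lyve1, at log2 ratios of 0.52 and 0.30.

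Among the 12 lowest ratios of such genes, Rgs1, a regulator of G protein signalling, was at 38.9 CPM in inhibitor cells and 196 CPM in DMSO cells (0.198-fold, 0.151 to 0.257). Gngt2, a G protein gamma subunit, was at 53.7 and 194 CPM (0.277-fold) and Dusp2, a phosphatase that acts on mitogen-activated kinases, at 17.7 and 58.2 CPM (0.304-fold). Mpeg1, which encodes the pore-forming protein perforin-2 of macrophages, was at 188 and 549 CPM (0.343-fold, 0.302 to 0.388). Gdf15, a stress-induced cytokine, was at 18.3 and 65.1 CPM, and Gramd1b, a sterol transporter, at 12.4 and 56.1 CPM. Spon1, Gm43088, CT010467.1, Plbd1 and Slamf7 completed the 12 lowest ratios with Fabp5.

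**Figure D5:**
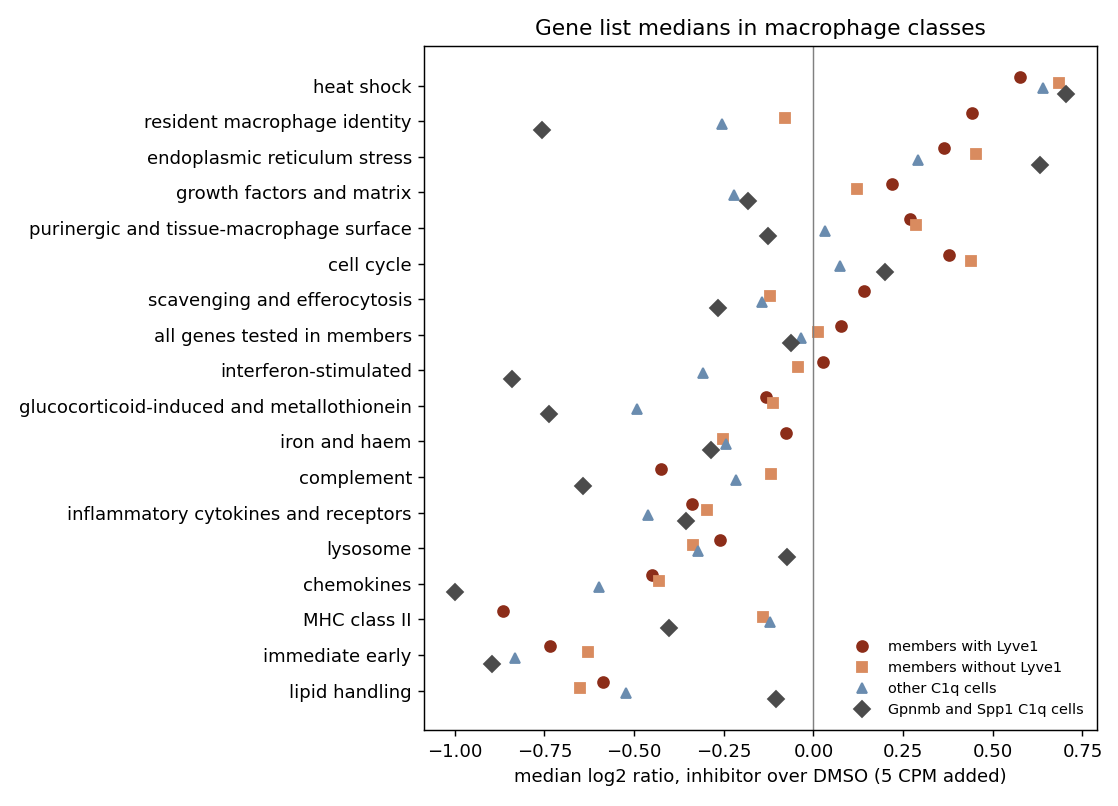
Median log2 ratio of inhibitor over DMSO (5 CPM added) of each gene list in resident macrophages with a Lyve1 UMI, those without, the other C1q cells and the Gpnmb and Spp1 cells. MHC class II genes are at -0.86 with Lyve1 and -0.14 without, resident identity genes at 0.44 and -0.08, and immediate early genes between -0.90 and -0.63 in all 4. Cells with Lyve1 differed in Lyve1 level between the libraries.

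Set beside the other C1q cells of the same library, the resident macrophages differed in genes that the rule did not use. The 10 genes highest in both libraries were Fcna, Ccl8, Ednrb, F13a1, Stard8, Clec10a, Ltc4s, Fcgrt, Itsn1 and Pf4. Fcna, which binds sugars on microbes, was at 115 CPM in resident and 3.17 CPM in other C1q cells of the inhibitor library, and at 74.4 and 6.57 CPM in the DMSO library. Ccl8 was 6.79-fold as high as in the other C1q cells in the inhibitor library against 6.18-fold in the DMSO library. Ednrb, an endothelin receptor, was 14.9-fold and 4.61-fold as high in the inhibitor and the DMSO library. The 10 lowest were Arg1, Mmp12, AA467197, Il1b, Bcl2a1d, Sema4d, Sirpb1c, Tmem119, Cd72 and Cxcl10. Mmp12, the macrophage elastase, was at 10.6 CPM in resident and 75.8 CPM in other C1q cells of the inhibitor library, and at 12.2 and 92.9 CPM in the DMSO library. Arg1, arginase, was at 3.54 CPM in resident and 94.0 CPM in other C1q cells of the inhibitor library and at 10.2 and 103 CPM in the DMSO library. With 1 library of each group these ratios were not tested, and each is a description of both libraries.

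Against the Gpnmb and Spp1 macrophages, the lectin gene Mgl2 was highest, at 552 CPM in resident and 4.09 CPM in Gpnmb and Spp1 cells of the inhibitor library, and 229 and 4.65 CPM in the DMSO library. The inhibitor value rests on 3 UMIs in Gpnmb and Spp1 cells, and the ratio there was 135-fold (46.0 to 655). Retnla, with 0 UMIs in the inhibitor Gpnmb and Spp1 cells, Hpgd, Clec4b1, Clec10a, F13a1, Lifr, Abca9, Sult1a1 and Mylk followed. Retnla came from few resident macrophages, with none in 90.3% of inhibitor and 90.2% of DMSO cells. Lowest were Mmp12, Cd5l, Atp6v0d2, Arg1, F7, Syngr1, Fabp5, Rnf128, Il7r and Acp5. Fabp5 stood in the resident macrophages at 0.00648 times its level in the Gpnmb and Spp1 cells in the inhibitor library and at 0.0688 times in the DMSO library.

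Within the resident macrophages, cells with a Lyve1 UMI differed from those without in both libraries. Fcna was at 164 CPM with and 28 CPM without Lyve1 in the inhibitor library, and at 182 and 40.2 CPM in the DMSO library. Igfbp5, Arhgef3, the lectin gene Cd209f, Sulf2, which trims heparan sulfate, and Chp2 were also higher with Lyve1. Retnla, a secreted protein induced by interleukin signals, was at 269 CPM with and 1419 CPM without Lyve1 in the inhibitor library, and at 90.9 and 642 CPM in the DMSO library. It came from few cells, and 90.3% of inhibitor cells had none. Its detection was no lower with Lyve1 in the inhibitor library, where 89.3% of cells with and 92.6% without Lyve1 had none. In the DMSO library 92.9% and 89.4% had none. Ifitm1, Timp1, Ccdc34 and the histone genes Hist1h2ae and Hist1h1b were lower with Lyve1. A cell without a Lyve1 UMI may still express the gene below detection, so the split is by detection, at median depths of 4022 UMIs with and 5170.5 UMIs without Lyve1 in the inhibitor library and 5717.5 and 5807 UMIs in the DMSO library.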

How the data were processed

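The deposited matrices hold unnormalised UMI counts, by gene and barcode. Per the file headers they come from Cell Ranger 6.1.1, and the submitters' processing notes name GRCm38 as genome build. Per the labels' protocols, enzymes digested 5 segments of aorta to single cells, with a target of 5000 per library on the 10x 3' v3 kit. Those notes also name Seurat, with no step given.

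A minimum of 200 genes and a maximum of 20% mitochondrial UMIs was set for cells, and the members were taken by the rule given in the report, with no clustering. The members and the gene lists were chosen with earlier results of these data known. Doublets were not removed; leaving out cells with a Scrublet score above 0.2 (scanpy 1.11.5) was an alternative. Counts were summed over members per library, scaled to CPM, and compared as the ratio of inhibitor to DMSO with an exact conditional binomial 95% interval. Shares have Clopper-Pearson intervals and levels exact Poisson intervals. UMIs remove PCR copies, and the intervals cover counting error only. With 1 library per group there was no test and no p-value.

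Log2 ratios had 5 CPM added. The 12 highest and 12 lowest ratios were named among called genes with at least 50 CPM in 1 library, 30 UMIs over both and a level at least that of cells without C1q UMIs, plus up to 4 genes per list and direction, the 10 highest and 10 lowest against other C1q cells and against Gpnmb and Spp1 cells in both libraries, and the 6 highest and 6 lowest by Lyve1. Mitochondrial, ribosomal protein, haemoglobin, immunoglobulin, T cell receptor and rule genes were not ranked. Of the genes this rule takes, 2 are not reported here. Other named genes are list members or genes chosen after their values were seen, such as Ccr2. The ratio call was run on counts simulated from the pooled profile of both libraries with counting error only. These held no variation between cells or libraries, so the run cannot judge calls that such variation makes. Python 3.11.15, numpy 2.4.6 and scipy 1.17.1 were used. Alternatives changed the marker number, the C1q minimum, the cell filters, thinning, scaling, the fold and the filter on low counts; 4 were added after the data were seen.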

Additional observations from a re-analysis of the deposited data

Results flagged for a closer look

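Cp, which encodes the copper-carrying ferroxidase ceruloplasmin, differed in opposite directions in 2 classes of macrophages. It was 1.54-fold higher in inhibitor than in DMSO cells among the resident macrophages, at 135 and 87.5 CPM, and stood at 0.320 times the DMSO level among the other C1q cells, at 20.6 and 64.4 CPM. The difference between the classes was not tested, since each group has 1 library. In cells without C1q UMIs, Cp was at 143 CPM in the inhibitor library and 433 CPM in the DMSO library. Among resident macrophages without a Lyve1 UMI the ratio was 0.799, with an interval that held 1. The higher call in resident macrophages was also lost with 3 markers required, at a log2 ratio of 0.16, with 2 of Lyve1, Cd163 and Folr2 required, at 0.29, and after centring, at 0.52.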

How the results depend on the processing

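No paired analysis was possible because each group has 1 library, and no library could be left out. Requiring 3 markers gave shares of C1q cells of 28.8% (inhibitor) and 7.90% (DMSO), and of all cells 2.55% and 1.5%; 2 of Lyve1, Cd163 and Folr2 gave 33.1% and 9.54%, and 2.93% and 1.81%. Thinning to 2000 UMIs gave 33.2% and 12.9%, and 2.81% and 2.39%. A C1q minimum of 0.5% gave 47.0% and 25.2% of C1q cells. At most 10% mitochondrial UMIs gave 3.17% and 3.40% of all cells, and at least 1000 genes 4.34% of all and 23.9% of C1q cells in the DMSO library. The share of C1q cells was larger in the inhibitor library under all 7 alternatives run. The counts of genes higher and lower were 337 and 295 among genes at least as high as in cells without C1q UMIs, 1063 and 754 with no filter on low counts, 136 and 115 with at least 100 CPM and 50 UMIs, 204 and 183 at 2-fold, and 69 and 35 with cells holding 2 UMIs of another class left out, which kept 16 and 8 cells. The other 12 alternatives gave 476 to 849 higher and 387 to 582 lower genes.

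Of 83 genes named by ratio, 44 kept their call under all alternatives that gave a value. Among cells without Lyve1, 18 lost their call without reversing. With 16 and 8 cells, the log2 ratios reversed were 1.00 for H2-Aa, 0.34 for H2-Ab1, 0.30 for Ctss, 1.44 for Mt1, -0.033 for Mrc1, -0.050 for F13a1, -0.0099 for Fkbp5 and -1.14 for Gm26870, and the MHC class II median over 5 genes was 0.41. Without Lyve1, Cp was -0.30 and the resident identity median -0.068 over the 20 genes with at least 20 UMIs; with Lyve1, Mmp9 was -0.24. Mt1 was 0.017 without high Scrublet scores and 0.16 without cells of 1% stromal marker UMIs, where Cd59a was 0.065. In all of these the cause was not tested. Genes under 20 UMIs and lists with under 5 genes above that gave no value in a setting.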
